A study of Mus musculus with 6 samples.

Results

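The 8 genes described here encode proteins of the myelin sheath, of glial cells and of neurons that are known as targets of autoimmune attack: Mbp, Mog, Mag, Pmp22, S100b, Gfap, Gad1 and Snap25. They were chosen by name, as all non-control probes that the array design gives to these genes, which were 19 of 41174 probes and 8 of 28030 named genes. Of the 19 probes, 12 probes of 6 genes were measurable enough to be tested, among 26569 probes tested in all. The study measured RNA with 6 one-colour whole-genome arrays, 2 arrays for each of 3 sorted populations of mouse thymic epithelial cells. All cells came from C57BL/6 mice aged 4 weeks that carry Tg(Meis1-EGFP)FO156Gsat/Mmcd, a bacterial artificial chromosome from which EGFP is made under the control of Meis1 sequences, so no sample lacks the transgene. Within cells negative for CD45, the common leukocyte antigen, and positive for the epithelial surface protein EpCAM, the Meis1-high gate took EGFP-high cells of low forward scatter, a measure of cell size. The Meis1-low gate took cells of intermediate EGFP and high forward scatter, and the Meis1-negative gate took EGFP-negative cells of low forward scatter. EGFP level and cell size therefore cannot be told apart between Meis1-low and the other gates. Each array held RNA from a pool of 6 mice. The p-values below measure only the spread between these pools, and 2 arrays against 2 cannot give an exact two-sided permutation p below 0.333.

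Developing T cells meet the body's own proteins in the thymus, where epithelial cells of the medulla transcribe many genes that otherwise belong to single tissues. In part of these cells this transcription depends on Aire, a nuclear regulator whose loss causes multi-organ autoimmunity, while other tissue genes are transcribed without it. Myelin and neural proteins are a textbook case, since the form in which they appear in the thymus can differ from the form in brain or nerve. Mbp is the best known example: besides the classic transcripts of myelin-forming cells, the gene gives longer golli transcripts that are also found in thymus and lymphoid cells.

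The labels were first set against marker genes. On a log2 scale on which 0 is the 75th percentile of an array, Meis1 was at 0.24 and 0.12 in Meis1-high, at -2.35 and -1.61 in Meis1-low, and at -3.20 and -0.99 in Meis1-negative, so both Meis1-high arrays lay above the other 4. Aire was at 1.19 and 2.69 in Meis1-high, at 3.87 and 4.65 in Meis1-low, and at 1.22 and 3.84 in Meis1-negative. Meis1-negative replicate 1 stood apart from the other arrays. Its mean over 15 thymocyte markers was 3.34, against -1.73 to -1.29 on the 4 arrays of the other gates and 0.02 on its own replicate, and its mean over 6 epithelial markers was 0.80, against 2.72 to 2.96 elsewhere. Ptprc, the gene for CD45, was at 5.17 and 3.17 in Meis1-negative and at most 0.43 in the other gates. The differences of the 8 genes from Meis1-negative are therefore also given without its replicate 1 or by slide, and the part of thymocyte RNA in it was not tested. The signal at the 75th percentile ran from 73.38 on Meis1-high replicate 1 to 164.9, and 53.1% to 69.6% of spots per array were well above background by the scanner's own mark. The plot of marker lists shows that mature medullary and Aire-induced genes were high on both Meis1-low arrays and low on both Meis1-high arrays.

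**Figure D1:**
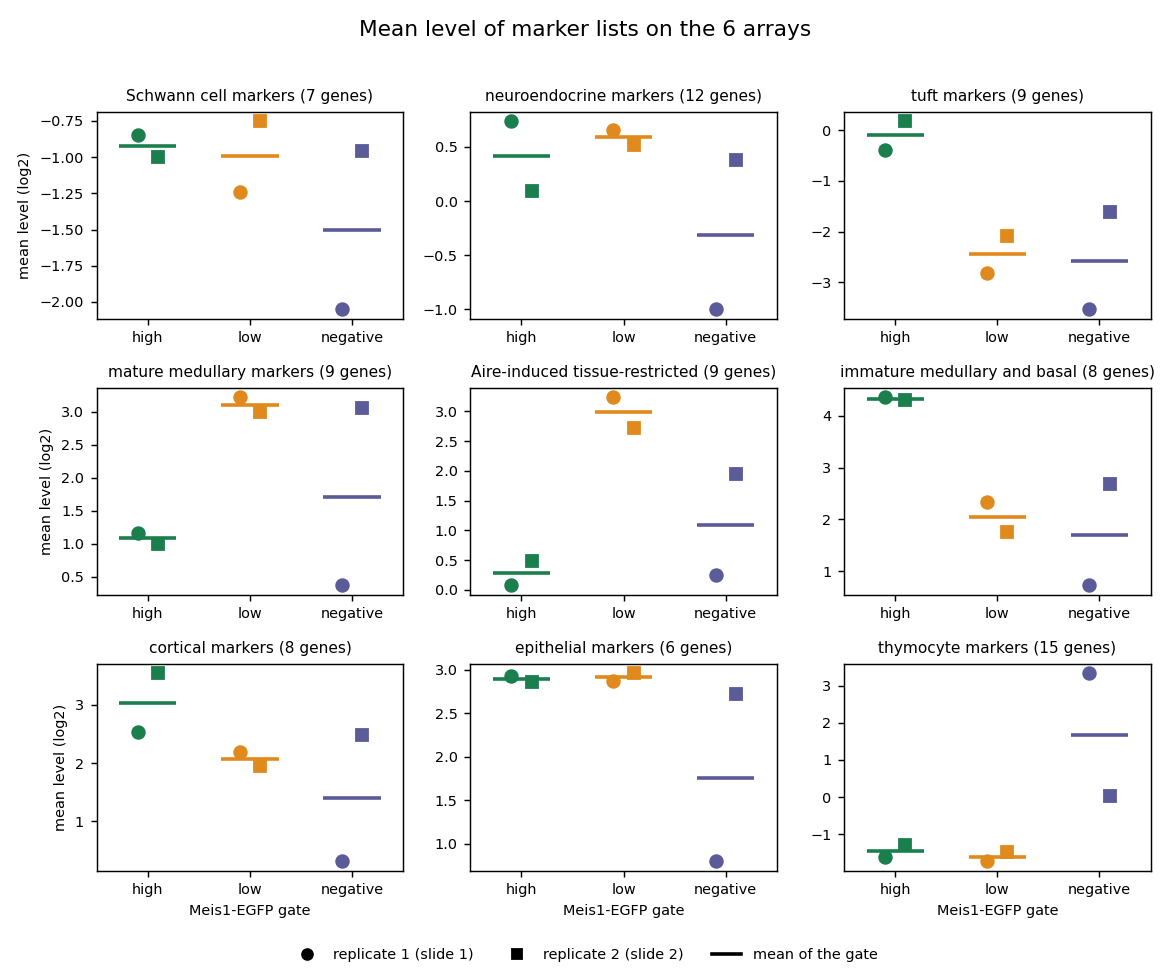
Mean log2 level (0 is the array's 75th percentile) of 9 marker lists on each array, by Meis1-EGFP gate; circles are replicate 1, squares replicate 2 and lines the gate means. The 15 thymocyte markers reach 3.34 on Meis1-negative replicate 1, and the 9 Aire-induced genes lie at 3.24 and 2.72 in Meis1-low against 0.08 and 0.49 in Meis1-high.

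The array reads each gene through strands of 60 bases, and 4 of the coding ones are shown because they say which stretch of the gene a level stands for; they are given 5′ to 3′ as in the array design, with positions on mm9. The S100b probe (chr10:75722709-75722768, plus strand) covers the calcium-binding loop of the protein's canonical EF hand, whose 36 bases are in capitals. The Snap25 probe starts at chr2:136595900 and ends at chr2:136599679 on the plus strand, so its 60 bases are spread over 3780 bases of genome and must join separate exons. Its capitals mark a cysteine codon of the cysteine-rich linker through which SNAP-25 is held at the membrane by attached fatty acids. The Mag probe (chr7:31692038-31692097, minus strand) lies in the part that codes for the extracellular immunoglobulin-like domains. The Mog probe (chr17:37157407-37157466, minus strand) is the one assigned to a RefSeq transcript. The first and second of these probes gave measurable levels on all 6 arrays, the Mag probe on 2, and the Mog probe on 0.
S100b: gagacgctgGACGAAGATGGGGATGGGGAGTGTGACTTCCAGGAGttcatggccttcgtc
Snap25: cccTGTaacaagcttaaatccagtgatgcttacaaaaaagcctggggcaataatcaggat
Mag: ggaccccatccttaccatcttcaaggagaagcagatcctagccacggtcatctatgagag
Mog: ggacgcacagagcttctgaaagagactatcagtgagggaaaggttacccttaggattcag

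Among the tested probes, Gad1 and Mag had the largest differences of gate means, in opposite directions, but their slides differed widely. The second downstream Gad1 probe gave -6.22 and -1.72 by slide in Meis1-high minus Meis1-low, with Meis1-high at background on the first slide. For the downstream Mag probe, Meis1-high minus Meis1-negative was 5.22 and 1.82, the first against the Meis1-negative array that stood apart. The upstream Mag probe did not show this order. The downstream Mag probe and the main Pmp22 probe were highest in Meis1-high, by 3.73-fold and 2.60-fold over Meis1-low. The golli Mbp probe and the S100b probe were lower in Meis1-high than in Meis1-low on both arrays, by 2.37-fold and 2.64-fold. Both downstream Gad1 probes were lower there too, with 1 of 2 Meis1-high arrays well above background. The 3 Snap25 probes differed little between these gates and lay higher in Meis1-high than in Meis1-negative. Mog and Gfap gave no measurable level on the 6 arrays.

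None of these differences passed the test across all probes, which was limma on the 6 arrays with Benjamini-Hochberg adjustment over 26569 probes and a threshold of 0.05. Between Meis1-high and Meis1-low, 0 of 12 member probes passed, as did 0% of all probes. At an unadjusted p under 0.05 the count was 1 of 12 there, with 12.3% of all probes. Both Meis1-high arrays lay above both Meis1-low arrays for 2 of the 12 (24.0% of all probes) and below them for 5 (28.1% of all probes), and adjusted p ran from 0.345 to 0.998.

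Between Meis1-high and Meis1-negative, 0 of 12 passed in limma (0% of all probes) and 2 had an unadjusted p under 0.05 (10.1% of all probes). Both Meis1-high arrays were above both Meis1-negative arrays for 5 probes (19.6% of all probes) and below for 1 (19.8% of all probes). Between Meis1-low and Meis1-negative, 0 of 12 passed (0% of all probes) and 0 had an unadjusted p under 0.05 (7.48% of all probes). Meis1-low was above on both arrays for 4 (21.0% of all probes) and below for 0 (17.7% of all probes). The 3 comparisons share their arrays, so they are not independent of each other. In sign alone, 10 of the 12 probes were higher in Meis1-low than in Meis1-negative, and 8 of 12 without Meis1-negative replicate 1, where the median difference went from 0.88 to 0.26. Over all probes 48.9% and 48.7% were higher, with medians of -0.03 and -0.02. A probe that is measurable only in 1 gate had to be higher there to be tested, so these counts describe the probes and support nothing further.

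**Figure D2:**
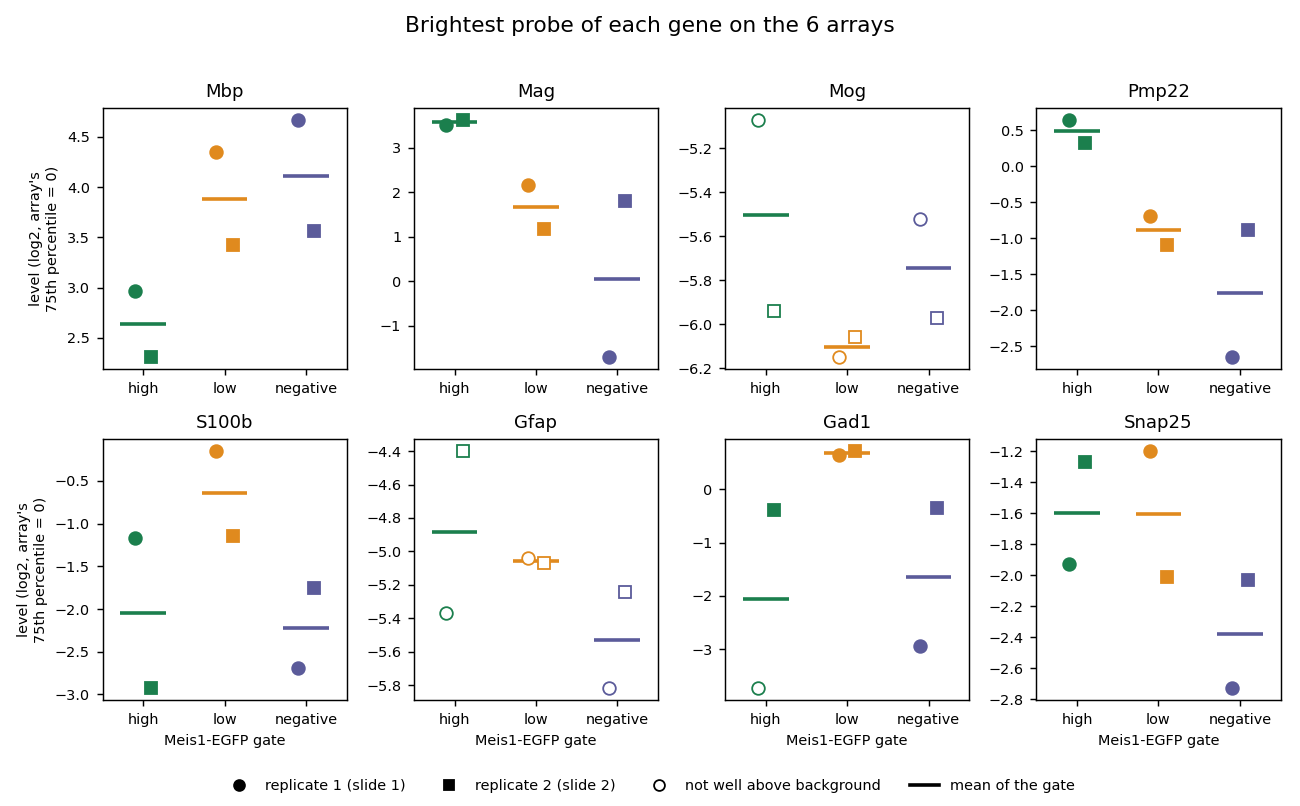
Log2 level (0 is the array's 75th percentile) of the brightest probe of each of the 8 genes on every array, by Meis1-EGFP gate, with each panel on its own axis; open symbols are not well above background and lines are gate means. Mag and Pmp22 are highest on the 2 Meis1-high arrays, Gad1 is highest on the 2 Meis1-low arrays at 0.65 and 0.72, and Mog and Gfap have open symbols only.

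Myelin basic protein, encoded by Mbp, compacts the cytoplasmic faces of the myelin membrane and is the antigen used most often to induce experimental autoimmune encephalomyelitis. The array has 3 probes for it on chromosome 18, and they did not give 1 pattern. The brightest, A_52_P604195 at chr18:82727929-82727988, is assigned in the design only to NM_001025245, the RefSeq record of a golli transcript. Its levels were at 2.97 and 2.31 in Meis1-high, at 4.35 and 3.42 in Meis1-low, and at 4.67 and 3.56 in Meis1-negative. Both Meis1-high arrays lay below the other 4, and Meis1-low and Meis1-negative overlapped. The difference between Meis1-high and Meis1-low was -1.25 ± 0.72 (SE, 2 arrays a gate, limma adjusted p = 0.534), with -1.38 on the first slide and -1.11 on the second. Against Meis1-negative it was -1.47 ± 0.72 (limma adjusted p = 0.548), and between Meis1-low and Meis1-negative -0.22 ± 0.72 (limma adjusted p = 0.946). Without Meis1-negative replicate 1 they were -0.91 and 0.33. In RNA from sorted pools, a higher level from more cells of a type and from more RNA per cell cannot be told apart, here and for every gene below.

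The other Mbp probes are assigned to the classic transcript NM_010777 and several variants of it, and both were dim. A_52_P329451, which is spread over 2305 bases from chr18:82742266 to chr18:82744570 and so crosses at least 1 intron, was at -3.26 and -4.75 in Meis1-high, at -3.60 and -1.90 in Meis1-low, and at -3.36 and -4.41 in Meis1-negative. It was well above background on both Meis1-low arrays, on Meis1-negative replicate 1 and on neither Meis1-high array, and the higher Meis1-high value lay between the Meis1-low values. A_51_P349205, at chr18:82754755-82754814, is printed as 10 spots on every array. It was at -5.19 and -4.29 in Meis1-high, at -3.41 and -2.85 in Meis1-low, and at -4.61 and -3.33 in Meis1-negative.

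On that probe all 10 spots were well above background on both Meis1-low arrays and on Meis1-negative replicate 2, against 1 and 3 spots on the Meis1-high arrays and 0 on Meis1-negative replicate 1. The spread over the 10 spots was an SD of 0.19 and 0.15 in Meis1-low, against 0.38 and 0.79 in Meis1-high. Its difference between Meis1-high and Meis1-low was -1.61 ± 0.73 (limma adjusted p = 0.434), with -1.77 and -1.44 on the 2 slides. Where a probe is not well above background in a gate, only a bound can be given, taken as the lowest signal well above background on those arrays or the probe's own value if higher. By this bound the level in Meis1-low was at least 1.40-fold higher than in Meis1-high for the probe of 10 spots and at least 1.83-fold higher for the exon-spanning probe. The slides gave 0.33 and -2.85 for the latter, so they did not go the same way. With the mean of the 3 probes in place of the golli probe alone, Mbp in Meis1-low minus Meis1-negative turned from -0.22 to 0.58.

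**Figure D3:**
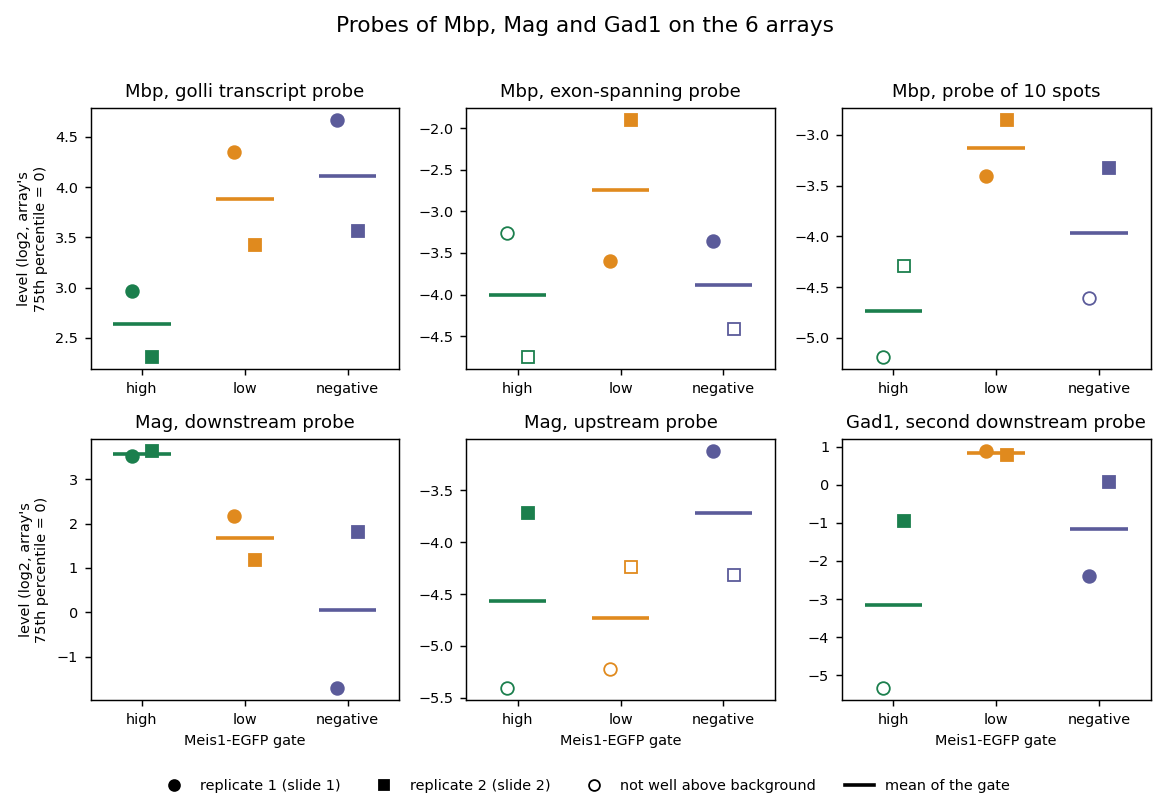
Log2 level (0 is the array's 75th percentile) of the 3 Mbp probes, both Mag probes and the second downstream Gad1 probe on every array, by gate, each panel on its own axis; open symbols are not well above background and lines are gate means. The golli Mbp probe is high in both Meis1-low and Meis1-negative, while the Mbp probe of 10 spots is highest in Meis1-low (-3.41 and -2.85). Of the Mag probes, only the downstream one is measurable on all 6 arrays.

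Myelin-associated glycoprotein, encoded by Mag, sits on the inner face of the sheath towards the axon and is the target of antibodies in a form of demyelinating neuropathy. Its downstream probe, A_51_P435428 at chr7:31684231-31684290 on the minus strand, was at 3.51 and 3.63 in Meis1-high, at 2.17 and 1.17 in Meis1-low, and at -1.71 and 1.81 in Meis1-negative. All 6 arrays were well above background, the Meis1-high arrays were the highest, and Meis1-low overlapped with Meis1-negative. The difference of Meis1-high from Meis1-low was 1.90 ± 1.12 (limma adjusted p = 0.542), with 1.33 and 2.46 on the 2 slides. From Meis1-negative it was 3.52 ± 1.12 (unadjusted p = 0.0148, limma adjusted p = 0.384), with 5.22 on the first slide and 1.82 on the second. Without Meis1-negative replicate 1 this difference was 1.76, and without its replicate 2 it was 5.28 with an adjusted p of 0.0437 in limma, where the array that stands apart, Meis1-negative replicate 1, is alone in its gate and is assumed to vary like the other gates, so the size rests on which Meis1-negative array is kept. Meis1-low lay 1.62 ± 1.12 above Meis1-negative (limma adjusted p = 0.695), with 3.89 and -0.64 by slide. With another background correction, normexp, Meis1-high minus Meis1-negative was 2.65 and passed (limma adjusted p = 0.000372).

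The second Mag probe does not show this pattern. The upstream probe A_52_P375021, whose sequence is printed above, was at -5.41 and -3.72 in Meis1-high, at -5.22 and -4.24 in Meis1-low, and at -3.12 and -4.32 in Meis1-negative. It was well above background on 1 Meis1-high and 1 Meis1-negative array and was not tested. Both probes lie on the same strand, and levels of different probes cannot be set against each other. What the downstream probe reports about full-length Mag RNA is therefore not shown by these arrays.

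Myelin oligodendrocyte glycoprotein, encoded by Mog, is exposed on the outermost surface of central myelin and is attacked in MOG antibody disease. Probe A_52_P85040 was at -5.07 and -5.94 in Meis1-high, at -6.15 and -6.06 in Meis1-low, and at -5.52 and -5.97 in Meis1-negative. The second probe, A_52_P169614 at chr17:37151531-37151590, lay between -6.62 and -3.25. Both were marked as not well above background on all 6 arrays, so no order of the gates can be given, and Mog RNA was not detectable at this signal.

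Peripheral myelin protein 22, encoded by Pmp22, spans the membrane of compact peripheral myelin, is the gene of the commonest inherited demyelinating neuropathy, and is also found at junctions of epithelial cells. Probe A_51_P258529 (chr11:62972914-62972973, plus strand) was at 0.65 and 0.33 in Meis1-high, at -0.69 and -1.09 in Meis1-low, and at -2.65 and -0.88 in Meis1-negative, well above background throughout. Both Meis1-high arrays lay above all others, and Meis1-negative replicate 2 lay between the Meis1-low arrays. The difference of Meis1-high from Meis1-low was 1.38 ± 0.76 (limma adjusted p = 0.513), and the 2 slides gave 1.34 and 1.42. From Meis1-negative it was 2.26 ± 0.76 (unadjusted p = 0.0192, limma adjusted p = 0.407), and the slides gave 3.31 and 1.21; without Meis1-negative replicate 1 it was 1.37. Meis1-low lay 0.88 ± 0.76 above Meis1-negative (limma adjusted p = 0.748), and the difference was -0.01 without Meis1-negative replicate 1. A second probe under the name Pmp22, A_52_P1067763, lies at chr11:62943886-62943945 on the minus strand, opposite to the first, and reports a cDNA clone. Its levels of -4.53 to -2.63 overlapped between all gates, with differences of -0.18, -0.32 and -0.13.

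Relatives of PMP22 also had measurable RNA. Of 5 listed family members, 4 were tested and 0 passed in any comparison. Perp, a desmosomal relative of stratified epithelia, was 1.41 ± 0.70 higher in Meis1-high than in Meis1-low (limma adjusted p = 0.470), and Emp2 was 1.03 ± 0.74 higher (limma adjusted p = 0.621). Emp3 went the other way: it was at -2.37 and -2.83 in Meis1-high, at -1.57 and -0.95 in Meis1-low, and at 0.54 and 1.08 in Meis1-negative. Its difference between Meis1-high and Meis1-negative was -3.41 ± 0.64 (limma adjusted p = 0.199), with -2.91 and -3.91 on the 2 slides. Thymocyte marker levels were highest on the Meis1-negative arrays too, at 3.34 and 0.02, and their part in the Emp3 level was not tested.

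Of 15 central myelin genes, 11 were tested; 6 were higher and 5 lower in Meis1-high than in Meis1-low, with a median difference of 0.01, against -0.06 over all probes. Against Meis1-negative, Meis1-high was higher for 8 and Meis1-low for 9, and these counts were 5 and 6 without Meis1-negative replicate 1. Aspa, which splits N-acetylaspartate, was 2.51 ± 0.70 higher in Meis1-high (limma adjusted p = 0.284), at -0.39 and -1.07 against -3.41 and -3.07. Cnp, a phosphodiesterase of uncompacted myelin, was at 0.93 and 1.24 in Meis1-high and 2.99 and 2.66 in Meis1-low, a difference of -1.74 ± 0.60 (limma adjusted p = 0.331). Trf, which encodes the iron carrier transferrin, differed by -1.69 ± 0.72 (limma adjusted p = 0.405). Opalin was well above background on 0 Meis1-high arrays and both Meis1-low arrays, and was at least 1.48-fold higher in Meis1-low by the bound (limma adjusted p = 0.327).

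Of 10 peripheral myelin genes, 6 were tested; 5 were higher and 1 lower in Meis1-high than in Meis1-low, with a median difference of 0.77. Mpzl2, an adhesion protein of epithelia, was 1.89 ± 1.03 higher (limma adjusted p = 0.511), and Mpzl3 had the opposite sign, at -1.24 ± 0.70 (limma adjusted p = 0.524). Epb41l2 was 0.99 ± 0.59 higher (limma adjusted p = 0.549), and Prx, the scaffold protein periaxin, was 1.07 ± 0.70 higher (limma adjusted p = 0.583). No gene of either list passed the test in any of the 3 comparisons. Of 10 Schwann cell markers, 7 were tested, and their mean level was at -0.85 and -1.0 in Meis1-high, at -1.24 and -0.75 in Meis1-low, and at -2.05 and -0.96 in Meis1-negative. Cdh19, a cadherin that marks Schwann cells and their precursors, was well above background on 0 arrays.

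S100b encodes a calcium-binding protein of astrocytes and Schwann cells, and is a target of T cells in autoimmune disease models. Its levels were at -1.17 and -2.93 in Meis1-high, at -0.15 and -1.14 in Meis1-low, and at -2.69 and -1.75 in Meis1-negative, all well above background. Meis1-low was highest on both slides, though its lower array lay only just above the higher Meis1-high array, and Meis1-high and Meis1-negative overlapped. The difference of Meis1-high from Meis1-low was -1.40 ± 0.82 (limma adjusted p = 0.542), and that of Meis1-low from Meis1-negative was 1.57 ± 0.82 (limma adjusted p = 0.653), where the slides gave 2.54 and 0.61 and the value without Meis1-negative replicate 1 was 1.10. Meis1-high minus Meis1-negative was 0.17 ± 0.82 (limma adjusted p = 0.951), and it turned to -0.30 without Meis1-negative replicate 1.

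Gfap encodes the intermediate filament of astrocytes, which is also found in Schwann cells that form no myelin. Its 3 probes lay between -6.23 and -3.95 on the 6 arrays, and 0 of the 3 were well above background on an array. The probe A_51_P395056 is printed as 10 spots, of which 1 was well above background on Meis1-high replicate 1 and 0 on each other array. Of 9 regulators of glial lineages, 6 were tested, with 3 higher and 3 lower in Meis1-high than in Meis1-low and a median difference of -0.16. Sox10, the transcription factor of Schwann cells and oligodendrocytes, was at -4.98 and -4.91 in Meis1-high, at -1.20 and -1.81 in Meis1-low, and at -5.41 and -3.08 in Meis1-negative. Both Meis1-low arrays stood above the other 4. Sox10 was well above background on 0 Meis1-high arrays and on both Meis1-low arrays, so it was tested through Meis1-low, and by the bound its level there was at least 4.34-fold higher than in Meis1-high (limma adjusted p = 0.278).

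Gad1 encodes GAD67, 1 of the enzymes that make the inhibitory transmitter GABA from glutamate; its relative GAD65, encoded by Gad2, is an autoantigen of type I diabetes and stiff-person syndrome. Probe A_51_P282538 (chr2:70439601-70439660, plus strand) was at -3.74 and -0.38 in Meis1-high, at 0.65 and 0.72 in Meis1-low, and at -2.94 and -0.34 in Meis1-negative. Probe A_52_P144310 (chr2:70439699-70439758) was at -5.34 and -0.95 in Meis1-high, at 0.88 and 0.77 in Meis1-low, and at -2.39 and 0.07 in Meis1-negative. On both probes the 2 Meis1-low arrays were close together and above the other 4, Meis1-high overlapped with Meis1-negative, and replicate 1 was far below replicate 2 in both of those gates. Meis1-high replicate 1 was the only array on which these probes were not well above background.

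For the first downstream Gad1 probe the difference of Meis1-high from Meis1-low was -2.74 ± 1.25 (limma adjusted p = 0.434), with -4.39 on the first slide, where Meis1-high was at background, and -1.10 on the second. For the second it was -3.97 ± 1.43 (unadjusted p = 0.0257, limma adjusted p = 0.345), with -6.22 on that first slide and -1.72 on the second. Meis1-low lay 2.33 ± 1.25 and 1.98 ± 1.43 above Meis1-negative on these probes (limma adjusted p = 0.655 and 0.705), and 1.02 and 0.75 above it without Meis1-negative replicate 1. Between Meis1-high and Meis1-negative the differences were -0.42 ± 1.25 and -1.99 ± 1.43, and both turned to above 0, at 1.26 and 0.21, without Meis1-high replicate 1; without Meis1-negative replicate 1 they were -1.72 and -3.22. The third probe under this gene's name, A_52_P663538, reports a cDNA clone at chr2:70414796-70414855 and was marked as not well above background throughout.

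Of 11 genes of GABA synthesis, transport, breakdown and reception, 10 were tested and 0 passed in any comparison; 3 were higher and 7 lower in Meis1-high than in Meis1-low, with a median difference of -0.40. Gad2 was well above background on 0 Meis1-high arrays, both Meis1-low arrays and 1 Meis1-negative array, and was at least 2.55-fold higher in Meis1-low than in Meis1-high by the bound (limma adjusted p = 0.474). Abat, which breaks GABA down, had the opposite sign, at 0.30 and -1.48 in Meis1-high against -3.30 and -2.89 in Meis1-low, a difference of 2.5 ± 0.96 (limma adjusted p = 0.368). Slc32a1, which loads GABA into vesicles, was at 0.71 and 0.56 in Meis1-high, at 0.28 and 0.27 in Meis1-low, and at -0.99 and 0.53 in Meis1-negative.

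Snap25 encodes the plasma-membrane SNARE protein that drives fusion of vesicles in neurons and endocrine cells and is cut by botulinum toxins. Its exon-spanning probe was at -1.93 and -1.27 in Meis1-high, at -1.20 and -2.01 in Meis1-low, and at -2.73 and -2.03 in Meis1-negative, well above background throughout. The first and second gates overlapped fully, and Meis1-negative lay just below both. The difference of Meis1-high from Meis1-low was 0.01 ± 0.67 (limma adjusted p = 0.998), with -0.73 and 0.74 on the 2 slides. From Meis1-negative it was 0.78 ± 0.67 (limma adjusted p = 0.730), with 0.80 and 0.75.

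The remaining Snap25 probes are assigned to an mRNA record and have no genome position in the design. A_52_P286421 was at -1.79 and -2.40 in Meis1-high, at -3.05 and -2.38 in Meis1-low, and at -4.23 and -2.84 in Meis1-negative. A_51_P335555 was at -2.49 and -2.96, -4.17 and -2.66, and -5.47 and -3.10 in the same order. Both Meis1-high arrays were above both Meis1-negative arrays on each. These differences were 1.44 ± 0.73 (limma adjusted p = 0.564) and 1.56 ± 0.94 (limma adjusted p = 0.633), with 0.44 and 0.13 on the second slide. Without Meis1-negative replicate 1 the differences of the 3 Snap25 probes were 0.43, 0.75 and 0.37.

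**Figure D4:**
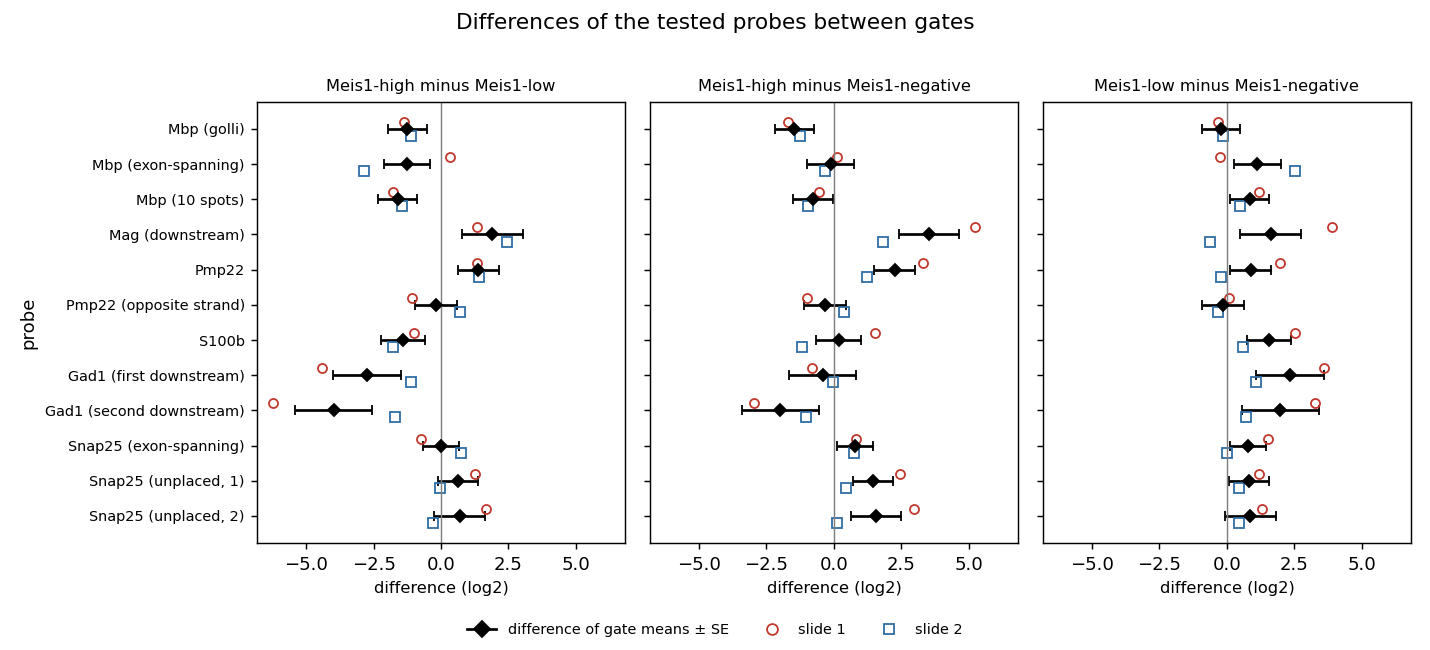
Difference in log2 level between gates for the 12 tested probes, 1 panel per comparison; diamonds are differences of gate means with bars of ± 1 SE from limma, circles the difference on slide 1 and squares on slide 2. Mag and Pmp22 lie right of 0 and both Gad1 probes left of 0 on both slides in Meis1-high minus Meis1-low, and slide 1 lies far from slide 2 for Mag against Meis1-negative (5.22 and 1.82).

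Of 18 genes of vesicle exocytosis, 17 were tested and 0 passed in any comparison; 5 were higher and 12 lower in Meis1-high than in Meis1-low, with a median difference of -0.61. Cplx1, a complexin that clamps and speeds neuronal fusion, was at -3.58 and -2.0 in Meis1-high, at 1.70 and -0.15 in Meis1-low, and at -0.99 and -0.45 in Meis1-negative. Its difference between Meis1-high and Meis1-low was -3.57 ± 0.87 (limma adjusted p = 0.278), with 1 of 2 Meis1-high arrays well above background, while its relative Cplx2 was 1.43 ± 0.65 higher in Meis1-high (limma adjusted p = 0.437). Snap23, the relative of SNAP-25 in most other cells, differed by -0.25 ± 0.67 (limma adjusted p = 0.910), and Vamp2, the vesicle partner of SNAP-25, by -0.11 ± 0.74 (limma adjusted p = 0.969). The mean over 12 neuroendocrine markers was at 0.74 and 0.09 in Meis1-high, at 0.66 and 0.52 in Meis1-low, and at -1.0 and 0.38 in Meis1-negative.

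Of 25 other neuronal and glial antigen genes, 24 were on the array, 19 were tested and 0 passed. Between Meis1-high and Meis1-low, 16 of the 19 were lower in Meis1-high and 3 higher, while 47.7% of all probes were higher. Both Meis1-high arrays were below both Meis1-low arrays for 13 of the 19, against 28.1% of all probes, and the median difference was -1.37, against -0.06 over all probes. On the Meis1-high arrays 16 and 15 of the 19 were well above background and on the Meis1-low arrays all 19. Gad2, Elavl3, Elavl2, Cdr2 and Slc1a2 passed the filter only through Meis1-low. Gad2 and Elavl3 were well above background on 0 Meis1-high arrays and had to be higher in Meis1-low. The filter favours the same order for Elavl2, Cdr2 and Slc1a2, which were so on 1 of 2. The counts and the median are therefore a description. The median was -1.04 without Meis1-high replicate 1, again with 16 lower. Nefh, the heavy neurofilament chain, was at -2.19 and -2.12 in Meis1-high, at -0.17 and -0.17 in Meis1-low, and at -2.38 and -0.71 in Meis1-negative, a difference of -1.99 ± 0.73 (limma adjusted p = 0.352). Dpysl5 differed by -1.76 ± 0.71 (limma adjusted p = 0.388). The glutamate transporter Slc1a2 differed by -3.25 ± 1.37 (limma adjusted p = 0.401), with 1 of 2 Meis1-high arrays well above background. Elavl3, an RNA-binding protein attacked in paraneoplastic disease, was well above background on 0 Meis1-high arrays, and its level in Meis1-low was at least 1.02-fold higher by the bound (limma adjusted p = 0.370).

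**Figure D5:**
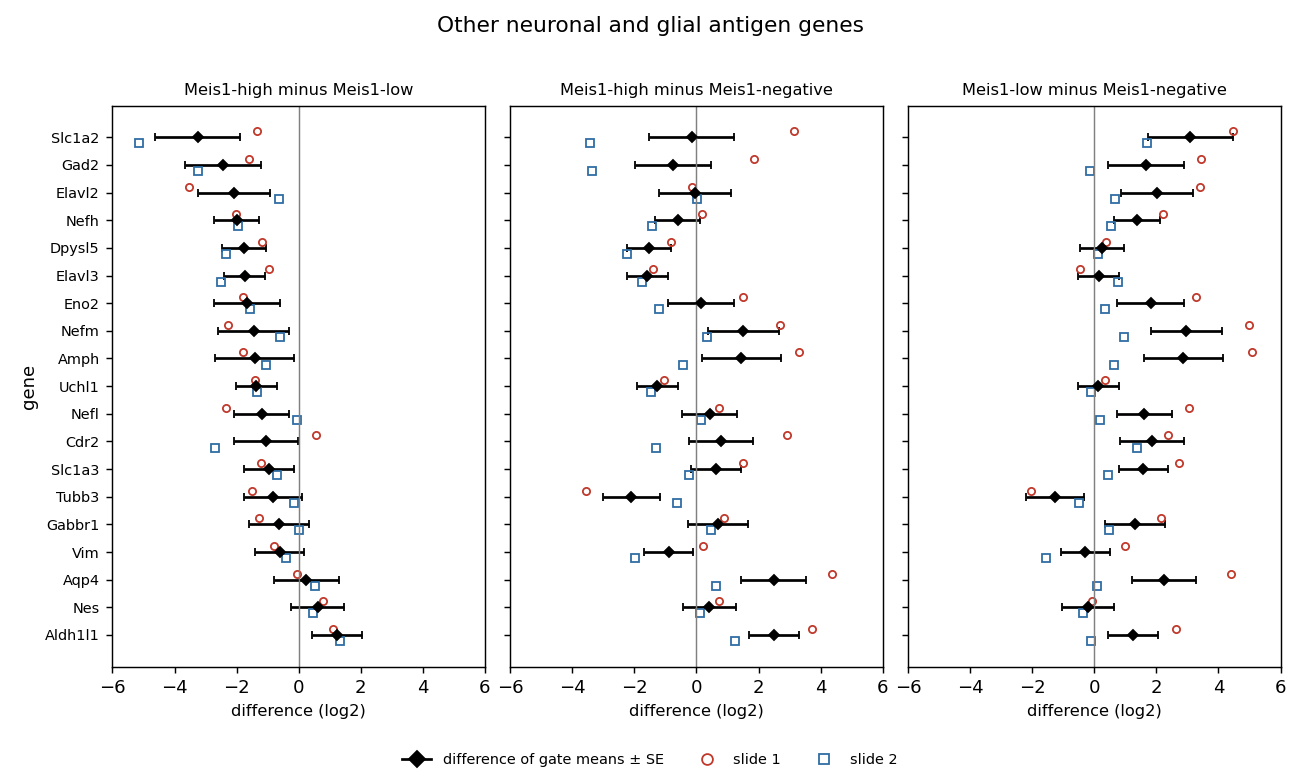
Difference in log2 level between gates for the 19 tested genes of the neuronal and glial antigen list, 1 panel per comparison; diamonds are differences of gate means with bars of ± 1 SE from limma, circles slide 1 and squares slide 2. In Meis1-high minus Meis1-low, 16 of 19 diamonds lie left of 0, and in Meis1-low minus Meis1-negative 16 of 19 lie right of 0, mostly further out on slide 1.

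The genes on that list with the opposite sign were Aldh1l1 (1.23 ± 0.81), Nes (0.62 ± 0.85) and Aqp4 (0.25 ± 1.04), while the astrocyte transporters Slc1a2 and Slc1a3 (-0.95 ± 0.80) had the sign of the majority. Aldh1l1 and Aqp4 lay 2.49 ± 0.81 and 2.49 ± 1.04 above Meis1-negative in Meis1-high (limma adjusted p = 0.394 and 0.484), with 1.24 and 0.62 on the second slide. In Meis1-low minus Meis1-negative, 16 of the 19 were higher in Meis1-low, with a median of 1.58, which was 0.45 without Meis1-negative replicate 1, again with 16 higher. Over all probes 48.9% were higher, and the genes that passed the filter only through Meis1-low were favoured to be higher there. In Meis1-high minus Meis1-negative, 10 were higher and 9 lower with a median of 0.14; without Meis1-negative replicate 1, 2 were higher and 17 lower with a median of -0.82. Of 8 genes of the node of Ranvier and of contact between axon and glia, 7 were tested and 0 passed. Cntnap2, the CASPR2 protein attacked in autoimmune encephalitis, was at -5.42 and -3.47 in Meis1-high, at -0.51 and -1.24 in Meis1-low, and at -3.28 and -1.78 in Meis1-negative, a difference of -3.57 ± 0.89 between Meis1-high and Meis1-low (limma adjusted p = 0.278) with 1 of 2 Meis1-high arrays well above background.

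Marker lists of thymic cell types are set beside these levels. The mean over 9 mature medullary markers was at 1.16 and 1.0 in Meis1-high, at 3.22 and 2.99 in Meis1-low, and at 0.37 and 3.05 in Meis1-negative, so both Meis1-low arrays were high for these markers as they were for Gad1 and S100b. The mean over 9 Aire-induced genes of other tissues was 0.08 and 0.49, 3.24 and 2.72, and 0.25 and 1.94. Macrophage and dendritic markers (9 genes) were at means of -1.91 and -1.33 in Meis1-high, at 0.30 and 0.49 in Meis1-low, and at -2.20 and 0.46 in Meis1-negative, with 0 of 9 higher in Meis1-high than in Meis1-low and a median difference of -1.83. Erythroid markers (5 genes) were at -3.41 and -1.47, at -0.13 and 0.06, and at -2.71 and -0.86, with 0 of 5 higher in Meis1-high than in Meis1-low and a median difference of -1.94. In the other direction, the mean over 8 immature medullary and basal markers was at 4.36 and 4.30 in Meis1-high, at 2.33 and 1.76 in Meis1-low, and at 0.73 and 2.68 in Meis1-negative, and that over 8 cortical markers was 2.53 and 3.54, 2.19 and 1.95, and 0.32 and 2.48. For the cortical markers the lower Meis1-high mean, 2.53, lay only just above the 2.48 of Meis1-negative replicate 2. Of these 8 genes, 5 were higher and 3 lower in Meis1-high than in Meis1-low. All 8 immature medullary and basal markers were higher in Meis1-high than in Meis1-low. Both Meis1-high arrays were highest for the mean of the immature medullary markers, as they were for Mag and Pmp22. They were also highest for 9 tuft cell markers, with means of -0.39 and 0.18, while Meis1-low was at -2.82 and -2.08 and Meis1-negative at -3.53 and -1.62, and all 9 were higher than in Meis1-low with a median difference of 2.58. Of these 9, Il25 passed the filter only through Meis1-high. Mrc1, Itgax and Csf1r among the macrophage and dendritic markers, and Klf1 and Hba-a1 among the erythroid ones, passed it only through Meis1-low. Such genes were favoured to be higher in the gate they passed through, so the counts and medians of these lists are descriptions. Over all probes 47.7% were higher in Meis1-high than in Meis1-low, with a median difference of -0.06. The part of the makeup of each gate in these gene levels was not tested.

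For each of the 6 measurable genes, the 2 most similar profiles were sought among 18168 genes outside the set, as the smallest Euclidean distance between log2 levels centred over the 6 arrays. They are a description of 6 arrays that share gates and slides, and say nothing of common control. Mag was closest to Gpr39 (distance 0.47, r = 0.995), a zinc-sensing receptor, and to Psmb11 (distance 0.67, r = 0.989), the thymoproteasome subunit of cortical epithelium. Psmb11 was at 3.64 and 4.37 in Meis1-high, at 2.21 and 1.33 in Meis1-low, and at -1.37 and 2.52 in Meis1-negative. Pmp22 was closest to Col18a1 (distance 0.20, r = 0.998), a basement membrane collagen, and to the interferon-induced gene Oasl2 (distance 0.25, r = 0.996).

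The golli Mbp probe was closest to Kif14 (distance 0.29, r = 0.989), a kinesin of dividing cells, and to Ficd (distance 0.41, r = 0.987). Kif14 was at -0.32 and -1.07 in Meis1-high, at 1.01 and -0.08 in Meis1-low, and at 1.14 and -0.07 in Meis1-negative. S100b was closest to Susd2 and Adra1b (distance 0.40 for each), Gad1 to Tub (distance 0.56, r = 0.996) and 1300017J02Rik (distance 0.68, r = 0.987), and Snap25 to Txnrd3 (distance 0.24) and Map3k4 (distance 0.28). None of these 12 genes encodes a myelin protein, but the 8 members were left out of the search and could not be named.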

How the data were processed

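Each array held Cy3-labelled cDNA amplified from 10 ng of RNA, per the labels' protocols. The deposited scanner files give a background-subtracted, detrended intensity per spot, not scaled between arrays, read with Agilent Feature Extraction 9.5.3.1, per the file headers and the submitters' processing notes. The authors' deposited value table holds log2 values with each array scaled and each probe's median at 0; it served as an alternative. Here log2 intensity minus each array's 75th percentile was used, without control and outlier spots, averaged per probe. A probe was well above background where the scanner marked as many of its spots as not, or more, and a probe had to be so marked on each array of some gate to be tested. A gene that passed through only 1 gate was favoured to be higher there, so counts by direction in the lists are descriptions. Differences come from limma 3.58.1 in R 4.3.3, with 1 mean per gate over 6 arrays (3 residual and 4.47 prior degrees of freedom), checked on simulated data; figures from Python 3.11.15 and matplotlib 3.10.9. The number of arrays limits the precision.

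By the file headers, all arrays of replicate 1 lay on the same slide and in the same scan, and those of replicate 2 on another. Replicate differences correlated at 0.198, 0.12 and 0.111 between gates, so the numbers pair the arrays; no label pairs the pools. The members and lists were chosen with earlier results of these data known. Text names all members, up to 4 genes per list with the smallest p in the comparison described, the 2 nearest profiles per gene and 4 gate checks; Cdh19, Slc32a1, Snap23, Vamp2, Slc1a3, Aldh1l1, Aqp4 and Nes in Meis1-high minus Meis1-low were named after their values were seen. A gene with several probes is represented in lists by its brightest. Alternatives were background correction, scaling, filter, floor, slide block, probe choice, variance model and leaving out each array. Some listed genes are not reported here. Positions are those of the array design; exon and UTR annotation on mm9 was not used here.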

Additional observations from a re-analysis of the deposited data

How the results depend on the processing

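Of 20 alternative settings, up to 19 gave a value for a difference, and 1 changed only the threshold. The filters, the slide block, the variance trend and the use of a gene's brightest probe could not change a difference. Part of the agreement in direction was therefore fixed in advance. The 36 differences of the 12 probes gave 642 values, of which 609 kept their direction and 33 reversed. Only 2 passed the threshold, both of Mag in Meis1-high minus Meis1-negative. With the replicate block (slide), 0 probes of the whole array passed in each of the 3 comparisons, and the block changed no call of a member. The count of all probes that passed, 0 in each comparison, became 275 (Meis1-high minus Meis1-low), 401 (Meis1-high minus Meis1-negative) and 160 (Meis1-low minus Meis1-negative) with normexp; 85 and 15 in the latter 2 with median scaling, which moved the median difference of all probes in Meis1-high minus Meis1-negative by -0.101; 24 with a floor and 4 with a variance trend in Meis1-high minus Meis1-negative; and 3 at a threshold of 0.10 in Meis1-low minus Meis1-negative. Leaving out 1 array gave 0 to 850 in Meis1-high minus Meis1-negative and 0 to 587 in Meis1-low minus Meis1-negative, the upper values without Meis1-negative replicate 2 and 0 without any other array; the cause was not tested. In Meis1-high minus Meis1-low, normexp reversed the Snap25 probes to -0.18, -0.04 and -0.08, the authors' value table turned the exon-spanning Snap25 probe to -0.01, and the floor turned the opposite-strand Pmp22 probe to 0.48. In Meis1-high minus Meis1-negative, normexp gave 0.25 and 0.18 for the exon-spanning and the 10-spot Mbp probes, 0.18 for the opposite-strand Pmp22 probe and 0.16 for the first downstream Gad1 probe; the floor gave 0.21 for the exon-spanning Mbp probe and 0.35 for the opposite-strand Pmp22 probe; and quantile scaling gave -0.04 for S100b. In Meis1-low minus Meis1-negative, normexp gave 0.35 for the opposite-strand Pmp22 probe, the floor -0.02 for Snap25 A_51_P335555, and the mean of probes 0.58 for Mbp. Where leaving out 1 array reversed a difference, the ranges in Meis1-high minus Meis1-low were -1.13 to 0.77 (opposite-strand Pmp22), -0.40 to 0.41 (exon-spanning Snap25) and -0.07 to 1.44 (Snap25 A_51_P335555). In Meis1-high minus Meis1-negative they were -0.87 to 0.62 (exon-spanning Mbp), -1.27 to 0.63 (opposite-strand Pmp22), -0.71 to 1.05 (S100b), and -2.10 to 1.26 and -4.18 to 0.21 (Gad1). In Meis1-low minus Meis1-negative they were -0.78 to 0.33 (golli Mbp), -0.14 to 3.39 (Mag), -0.01 to 1.77 (Pmp22), -0.41 to 0.14 (opposite-strand Pmp22) and -0.32 to 2.06 (Snap25 A_51_P335555). Of the Mog, Gfap and upstream Mag probes, low signal over background allowed levels only.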
